A study of Mus musculus with 12 samples.

Results

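In cultured mouse cells of pre-B acute lymphoblastic leukemia, 66 of 23224 genes stood on one side of wild type in every perturbation of Phf6, 25 of them above it and 41 below it. They were selected on measured levels. A gene was taken if the mean of each of 3 groups (KD, KO_sg4 and KO_sg1) differed from the wild-type (WT) mean by at least 1, in the same direction, on a scale of log2(mean CPM + 0.5), and if some group averaged at least 1 CPM. CPM scales the estimated count of a gene to a common library total. Of the genes in the table, 11427 reached 1 CPM in some group, so the 66 members were 0.578% of them. The solute carrier, Zfp and histone genes and 6 named genes (Igf1, Itgb3, Blk, H2-Q7, Grap2 and Acat3) were left out; without that step 29 genes would have stood above WT and 43 below. Because the levels in all 12 libraries chose the members, their differences from WT are given below as a description, with no test. Tests were made only between the perturbations, whose levels also entered the selection.

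RNA was sequenced in 4 groups of 3 libraries. KD cells carry a short hairpin RNA against Phf6, KO_sg4 and KO_sg1 cells were made Phf6 knockouts with different single guide RNAs, and WT cells have Phf6 intact. All groups, WT included, are C57BL/6J pre-B leukemia cells that lack p19 and overexpress the BCR-ABL1 fusion kinase, grown in culture. The labels do not say whether a knockout line is a clone or a pool, whether WT carries a control hairpin or guide, or whether replicate libraries were grown separately, so the spread behind the p-values may be technical.

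PHF6 is a chromatin-associated protein of the nucleus and nucleolus, encoded on the X chromosome and built around atypical PHD zinc fingers, and it binds the NuRD remodelling complex. Loss-of-function mutations of PHF6 recur in human T-cell acute lymphoblastic leukemia and in myeloid leukemia, and inherited variants cause an intellectual disability syndrome. A gene that stands on the same side of WT with a hairpin and with separate guides is the usual first filter against effects of a single reagent, although here all comparisons use the same 3 WT libraries, so a shift in those libraries would appear in each of them.

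Library totals ran from 20382328 to 36032369 estimated counts, at which a count of 0 in a library allows up to 0.0833 to 0.147 CPM (3 counts, counting error only). Phf6 itself had 10.2, 10.3 and 9.35 CPM in KD, 46.8, 27.6 and 35.6 CPM in KO_sg4, 3.01, 3.05 and 3.29 CPM in KO_sg1, and 33.0, 33.1 and 34.4 CPM in WT. It lay below WT in KD and KO_sg1 and overlapped WT in KO_sg4, and since guide-made indels can leave an mRNA's level untouched, this does not check that label. The knockout libraries stand apart in another way. The Y-linked genes Ddx3y, Kdm5d, Uty and Eif2s3y summed to 113 to 120 CPM in KD, 0.0331 to 0.142 CPM in the 6 knockout libraries and 74.7 to 86.0 CPM in WT. A difference in the origin of the knockout cells and the knockout itself cannot be told apart in these libraries. The 27 listed B-cell surface and receptor signalling genes summed to 25800 to 26300 CPM in KD, 9760 to 10500 CPM in KO_sg4, 10400 to 10800 CPM in KO_sg1 and 10800 to 11400 CPM in WT. None of the 27 was at 0 in any group. The list mixes lineage and general signalling genes, so its sum does not establish the pre-B label. As these are bulk libraries, fewer cells of a type and less RNA per cell cannot be told apart.

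The start regions of 6 members are printed because they carry the letters counted below. RefSeq promoters (GRCm38.p6, 250 bases before to 50 after the annotated start, from the gene's strand) were matched by gene for 16 members above WT, 33 members below WT and 9085 genes at 1 CPM or more. Letters were searched on either strand. Capitals mark TATAAA (the TATA box), GGGCGG (the GC box bound by Sp factors), TGACG (part of the cAMP response element) and TGANTCA (the AP-1 site). Galnt14 (chr17:73710402-73710701, minus strand) and Trio (chr15:28025799-28026098, minus strand) stood above WT, and each holds 3 GC boxes and no TATA box. Ckb (chr12:111672289-111672588, minus strand), Tnnt1 (chr7:4515926-4516225, minus strand) and Fos (chr12:85473640-85473939, plus strand) stood below WT, and their TATA boxes begin 28, 30 and 33 bases before the annotated start. Fosb (chr7:19309996-19310295, minus strand) is shown beside Fos, since both encode AP-1 subunits and both hold the TGACG letters. It stood below WT too, and it has 3 GC boxes and no TATA box.
Galnt14: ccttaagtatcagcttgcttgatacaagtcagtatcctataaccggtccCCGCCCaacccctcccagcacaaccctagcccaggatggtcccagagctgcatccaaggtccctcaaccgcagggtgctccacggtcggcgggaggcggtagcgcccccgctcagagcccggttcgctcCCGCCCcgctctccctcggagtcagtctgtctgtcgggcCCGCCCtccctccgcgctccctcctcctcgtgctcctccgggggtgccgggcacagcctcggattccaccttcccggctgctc
Trio: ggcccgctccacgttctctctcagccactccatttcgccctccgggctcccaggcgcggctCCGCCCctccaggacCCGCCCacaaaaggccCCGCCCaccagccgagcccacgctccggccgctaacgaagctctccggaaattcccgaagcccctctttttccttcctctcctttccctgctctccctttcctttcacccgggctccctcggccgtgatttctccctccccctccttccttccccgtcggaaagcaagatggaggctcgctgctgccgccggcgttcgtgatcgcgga
Ckb: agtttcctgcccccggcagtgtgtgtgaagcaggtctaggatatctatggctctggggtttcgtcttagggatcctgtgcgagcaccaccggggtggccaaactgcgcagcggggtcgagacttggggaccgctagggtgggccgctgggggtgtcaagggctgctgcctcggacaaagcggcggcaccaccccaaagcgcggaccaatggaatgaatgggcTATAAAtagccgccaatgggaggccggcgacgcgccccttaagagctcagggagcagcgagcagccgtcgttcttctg
Tnnt1: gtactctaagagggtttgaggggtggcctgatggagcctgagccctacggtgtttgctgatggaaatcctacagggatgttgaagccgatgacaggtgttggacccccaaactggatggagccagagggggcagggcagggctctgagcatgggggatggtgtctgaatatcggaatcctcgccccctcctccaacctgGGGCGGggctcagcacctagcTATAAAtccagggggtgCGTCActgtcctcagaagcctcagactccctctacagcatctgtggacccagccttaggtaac
Fos: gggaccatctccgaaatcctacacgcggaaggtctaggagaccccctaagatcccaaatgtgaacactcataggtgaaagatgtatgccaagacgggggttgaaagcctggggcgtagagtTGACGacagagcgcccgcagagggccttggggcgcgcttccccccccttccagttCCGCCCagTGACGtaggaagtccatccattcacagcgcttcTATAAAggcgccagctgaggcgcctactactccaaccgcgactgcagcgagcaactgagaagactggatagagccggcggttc
Fosb: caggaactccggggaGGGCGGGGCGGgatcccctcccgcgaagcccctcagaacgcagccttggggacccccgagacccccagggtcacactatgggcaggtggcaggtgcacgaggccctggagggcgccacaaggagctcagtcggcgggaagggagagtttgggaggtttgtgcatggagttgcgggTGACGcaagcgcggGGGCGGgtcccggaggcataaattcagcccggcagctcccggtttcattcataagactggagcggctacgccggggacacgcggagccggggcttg

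Shares are of genes with a matched promoter. A gene with several annotated starts counted if any of its promoters held the letters. TATA box letters were found for 6.25% of members above WT, 27.3% of members below WT and 8.45% of genes at 1 CPM or more. Over all 27025 genes of the promoter table the share was 15.7%. Of the 9 members below WT with these letters, 5 held them on the gene's own strand and 4 on the other strand only. Of those 4, 3 are neighbours on chromosome 5, and the promoters of 2 of them, 4933402N22Rik and Gm6460, are alike at 298 of 300 bases. In a promoter of the third, Speer1-ps1, nearly the same bases follow these letters at a shifted position. The matches of these neighbours are therefore not separate. Read on the gene's strand alone, a count added after the data were seen, the shares were 0 of 16 for members above WT, 15.2% for members below WT and 5.12% for genes at 1 CPM or more, against 9.77% of all genes of the table. GC box letters were found in 75.0%, 54.5% and 68.6% of the same sets, against 38.2% of all genes of the table. CpG dinucleotides and G and C content were averaged over the promoters of each gene. The median number of CpG dinucleotides was 19 for members above WT, 7.5 for members below WT and 21 for genes at 1 CPM or more. The median G and C content was 66.0%, 52.1% and 60.7%. The median of the members below WT was thus under that of genes at 1 CPM or more for both. It was close to that of all genes of the table, at 7 CpG dinucleotides and 52.8% G and C. The octamer ATGCAAAT, read by Oct factors in B cells, was found for 0 of 16 members above WT and 3 of 33 below it (9.09%). The share was 1.72% of genes at 1 CPM or more. AP-1 letters were in 0 of 16 and in 9.09%, against 5.75%, and in 8.97% of all genes of the table. The TGACG letters were in 25.0% and 27.3%, against 36.3%, so their presence in Fos and Fosb is common among expressed genes. The other letters searched were CCAAT for the NF-Y box, TTCNNNGAA for STAT, CCCNNGGGA for EBF, TGTGGT for RUNX, TGGGAA for Ikaros, GAGGAA for PU.1 and CAGCTG for the E-box, of which those of STAT, EBF, Ikaros and PU.1 can overlap. Their shares in members below WT and in genes at 1 CPM or more went both ways. They were 36.4% and 43.8% for CCAAT, 18.2% and 8.34% for STAT, and 6.06% and 9.08% for EBF. For RUNX they were 18.2% and 15%, for Ikaros 18.2% and 26.1%, for PU.1 39.4% and 30.5%, and for the E-box 15.2% and 17.1%. These shares are counts of letters in short windows and were not tested.

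**Figure D1:**
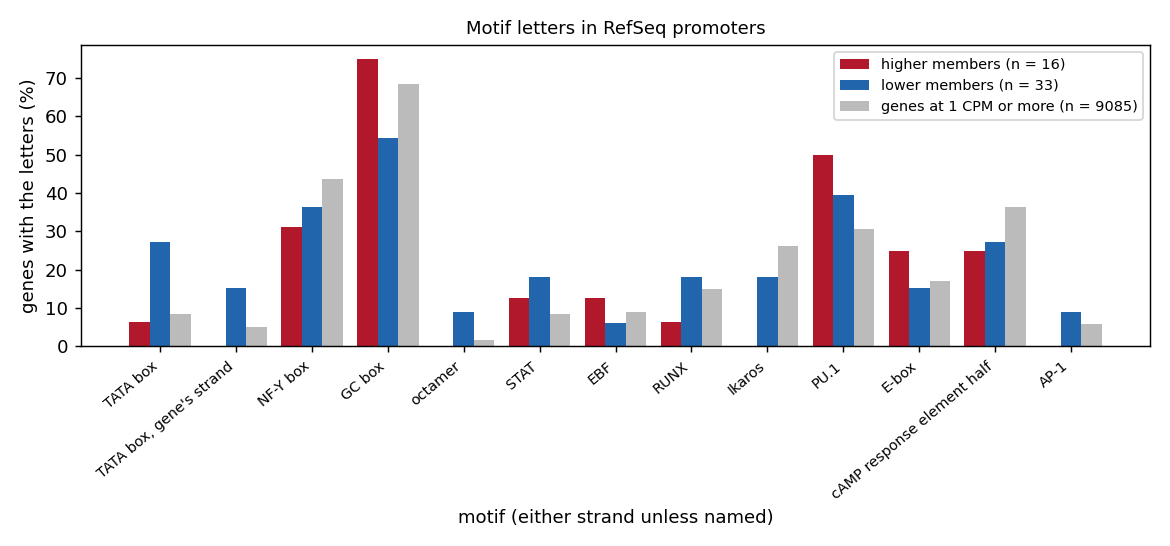
Share of genes (percent, vertical axis) whose RefSeq promoter holds the letters of each motif, on either strand or, where the axis says so, on the gene's strand, for 16 members above WT (called higher members), 33 members below WT (lower members) and 9085 genes at 1 CPM or more. The TATA bar of the lower members is at 27.3% on either strand, where copies on chromosome 5 count separately, and at 15.2% on the gene's strand.

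Across the 25 members above WT, the median difference from WT on the log2(mean CPM + 0.5) scale was 1.58 in KD, 1.67 in KO_sg4 and 1.5 in KO_sg1, and the largest were 2.35, 3.75 and 3.36. Over all 11427 genes at 1 CPM or more the medians were 0.15, 0.04 and -0.09. The group farthest from WT was KO_sg4 for 12 of these members, KD for 8 and KO_sg1 for 5. Most were scarce in WT, where 20 of the 25 averaged under 5 CPM. Across the 41 members below WT, the medians were -1.36 in KD, -2.44 in KO_sg4 and -2.22 in KO_sg1. Here the knockouts lay farther from WT than KD did: KO_sg4 was farthest for 20, KO_sg1 for 18 and KD for 3. KD set the smallest of the 3 differences in 31 of the 41, against 11 of the 25 above WT. Group means were under 1 CPM for 15 of the 41 in KD, 26 in KO_sg4 and 24 in KO_sg1, while every one of them averaged at least 1.28 CPM in WT.

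The steps of the selection were unequal between the groups. At 1 CPM or more, 2252 genes (19.7%) stood at least 1 above WT in KD, against 204 in KO_sg4 and 151 in KO_sg1. In the other direction, 273 genes (2.39%) stood at least 1 below WT in KD, against 660 in KO_sg4 and 659 in KO_sg1. Scaled with TMM factors in place of library totals, the median of all genes tested in KD against WT was -0.01, and the KD factors alone ran from 1.12 to 1.14; by that scaling 22 genes stood above WT in all perturbations, 20 of them among the 25, and 51 below, including all 41. Just inside the threshold above WT were Daam1, with a smallest difference of 1.002, and Rnf208, with 1.009; Epha5 and Ptger2, both at 0.995, were just outside. Below WT, Cdsn (-1.053) and Gcnt2 (-1.062) were just inside, and Capn5 (-0.997) and Cited2 (-0.991) just outside.

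All 66 members passed the filter on low counts. In each of the 66, all 9 perturbed libraries lay beyond all 3 WT libraries on the member's side, which the selection on group means nearly fixes. For scale, edgeR's quasi-likelihood test called 37.2% of 12335 genes above WT in KD and 40.4% below it, 18% and 22% in KO_sg4, and 16.9% and 21.9% in KO_sg1 (Benjamini-Hochberg adjusted p below 0.05). Nothing is read from the members' own share in these contrasts.

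**Figure D2:**
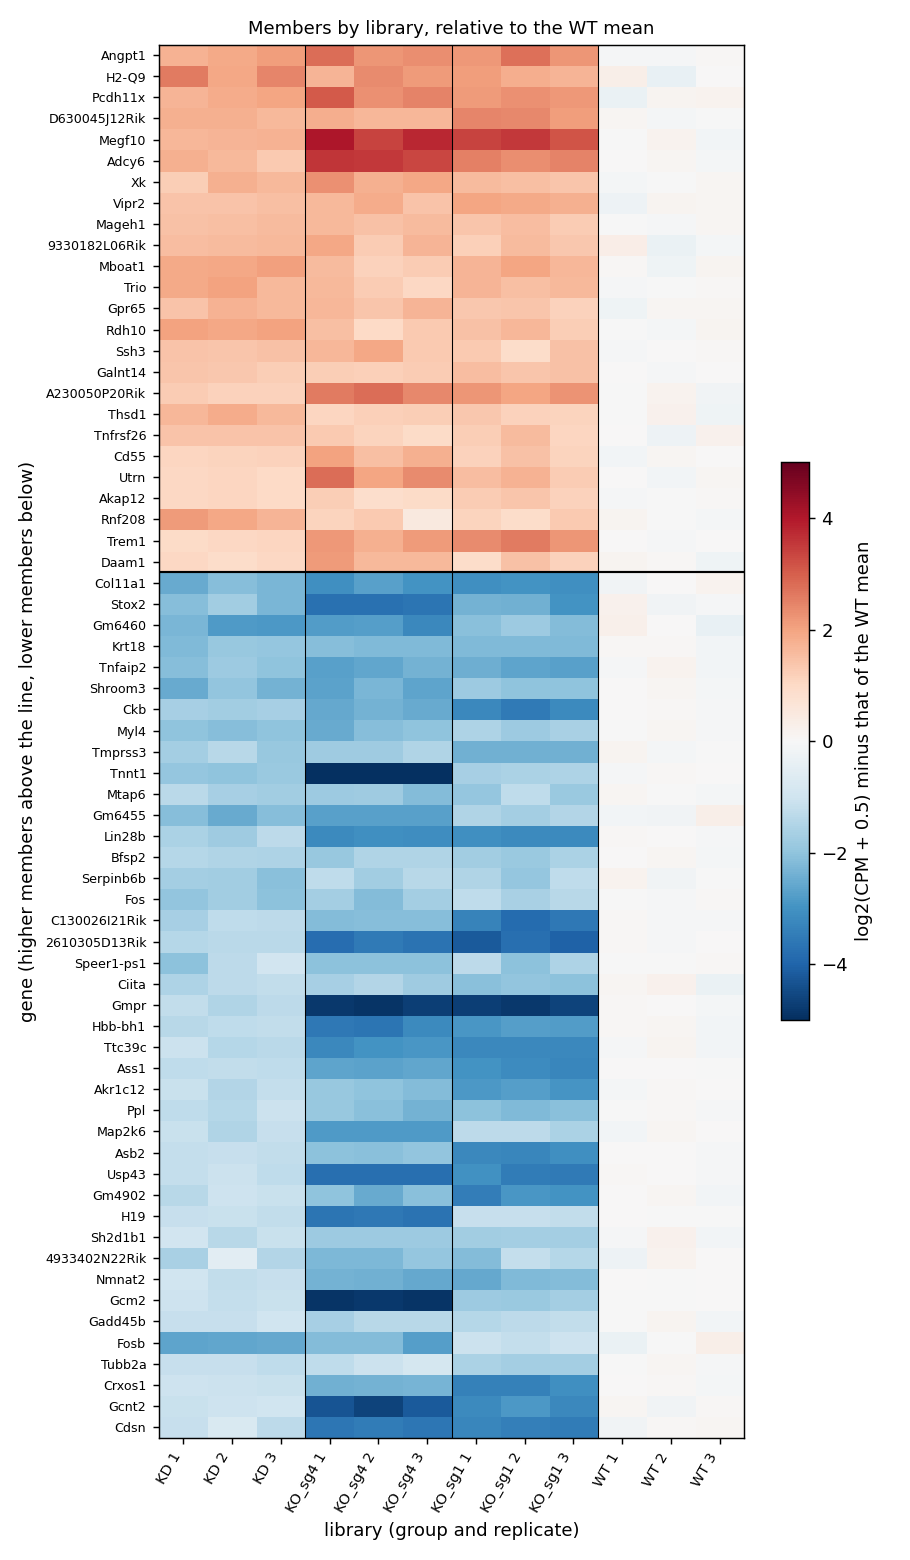
Level of each of the 66 members (rows) in each of the 12 libraries (columns), as log2(CPM + 0.5) minus that of the WT mean, with red above and blue below it. Rows run within each direction by the smallest of the 3 differences from WT. All perturbed libraries lie on one side of WT, and in the blue block the KO_sg4 and KO_sg1 columns are mostly deeper than the KD columns; colours stop at 5 log2 units either side.

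The members are given by role, above WT first; roles were assigned after the values were seen. Adcy6, an adenylate cyclase that makes the second messenger cyclic AMP, had 7.01, 6.13 and 4.93 CPM in KD, 25.8, 25.1 and 21.6 CPM in KO_sg4, 11.9, 10.5 and 11.6 CPM in KO_sg1, and 1.69, 1.82 and 1.53 CPM in WT. The 4 groups did not overlap, with KO_sg4 highest and WT lowest. Adcy6 was higher in KO_sg4 than in KO_sg1 by 0.98 ± 0.12 on the log2 scale (edgeR adjusted p = 3.02e-05, the figure after ± being the standard error of the fit) and lower in KD than in the mean of both knockouts by -1.70 ± 0.12 (edgeR adjusted p = 4.92e-09). Akap12, a scaffold that anchors protein kinase A, had 82.6, 84.1 and 79.2 CPM in KD, 95.3, 74.0 and 78.1 CPM in KO_sg4, 97.1, 104 and 89.8 CPM in KO_sg1, and 38.7, 39.1 and 41.7 CPM in WT. Its perturbed libraries spread over a narrow range well above WT. The small differences between them passed the test (KO_sg4 against KO_sg1 -0.35 ± 0.06, KD against KO -0.37 ± 0.05) and lost both calls when libraries were scaled by their totals (-0.23 and -0.13).

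Surface receptors come next. Trem1, an activating receptor known from myeloid cells, had 5.89, 6.29 and 6.40 CPM in KD, 14.3, 10.8 and 14.2 CPM in KO_sg4, 16.5, 19.5 and 14.9 CPM in KO_sg1, and 2.91, 2.65 and 2.89 CPM in WT. KD lay between WT and the knockouts without overlap, lower than the knockouts by -1.51 ± 0.10 (edgeR adjusted p = 2.75e-09). Myeloid markers did not follow that order: the 27 listed genes summed to 501 to 509 CPM in KD, 72.3 to 77.0 CPM in KO_sg4, 83.0 to 94.2 CPM in KO_sg1 and 177 to 182 CPM in WT, with Ctsg, Cebpa, S100a8 and Ltf at 0 in all groups. Of the 17 tested, 15 passed the test above WT and none below it in KD, against 0 and 12 in KO_sg4 and 1 and 12 in KO_sg1. Cd55, the decay-accelerating factor that protects cells from complement, had 9.94, 10.3 and 10.7 CPM in KD, 19.6, 13.7 and 16.9 CPM in KO_sg4, 10.7, 13.5 and 10.3 CPM in KO_sg1, and 4.07, 4.92 and 4.54 CPM in WT. KD and KO_sg1 overlapped, and KO_sg4 lay above both; KO_sg4 was higher than KO_sg1 by 0.42 ± 0.11 (edgeR adjusted p = 0.0118), a call lost with only the groups compared (0.42) and without KO_sg1 replicate 1 (0.36) or replicate 3 (0.38).

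Pcdh11x, an X-linked protocadherin, had 5.57, 6.34 and 6.89 CPM in KD, 15.4, 8.57 and 9.89 CPM in KO_sg4, 7.83, 8.68 and 8 CPM in KO_sg1, and 0.993, 1.54 and 1.60 CPM in WT. The first KO_sg4 library stood well above the other two, and the guides did not pass the test against each other (0.35 ± 0.16, edgeR adjusted p = 0.129), while KD was lower than the knockouts (-0.86 ± 0.15, edgeR adjusted p = 0.000104). Megf10, a receptor for the engulfment of dying cells, had 2.56, 2.63 and 2.74 CPM in KD, 15.6, 9.78 and 12.7 CPM in KO_sg4, 9.56, 10.9 and 8.24 CPM in KO_sg1, and 0.463, 0.589 and 0.380 CPM in WT. Its KD libraries were lower than the knockouts by -2.30 ± 0.13 (edgeR adjusted p = 7.5e-10), more than for any other member above WT, yet still clear of WT. H2-Q9, a class I-like gene whose counts are uncertain because near-identical copies share its reads, had 21.2, 13.0 and 18.6 CPM in KD, 10.9, 17.6 and 15.1 CPM in KO_sg4, 14.6, 12 and 11.1 CPM in KO_sg1, and 3.83, 2.26 and 3.05 CPM in WT. The perturbed groups overlapped each other, and neither contrast between them passed the test (edgeR adjusted p = 0.760 for the guides and 0.496 for KD against KO).

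Thsd1, a membrane protein with a thrombospondin repeat, averaged 6.45 ± 0.616 CPM in KD, 4.23 ± 0.262 CPM in KO_sg4, 4.36 ± 0.437 CPM in KO_sg1 and 1.61 ± 0.310 CPM in WT (SD, n = 3 each). It was among the few members above WT that were higher in KD than in the knockouts (0.34 ± 0.12, edgeR adjusted p = 0.0146), a call lost without KD replicate 2 (0.29). The remaining receptors and ligands lie outside the rule for named genes and were picked after their values were seen. Angpt1, the ligand of the Tie2 receptor, averaged 1.71 ± 0.281 CPM in KD, 2.73 ± 0.716 CPM in KO_sg4, 2.56 ± 0.739 CPM in KO_sg1 and 0.0819 ± 0.0279 CPM in WT, the lowest WT mean among the members above it. Gpr65, a proton-sensing receptor of lymphoid cells, averaged 2.53 ± 0.319, 2.51 ± 0.362 and 1.94 ± 0.198 CPM in KD, KO_sg4 and KO_sg1, and 0.497 ± 0.115 CPM in WT. Vipr2, a receptor of vasoactive intestinal peptide that raises cyclic AMP, averaged 2.65 ± 0.0903, 3.12 ± 0.519 and 3.73 ± 0.318 CPM in the same order and 0.649 ± 0.161 CPM in WT.

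**Figure D3:**
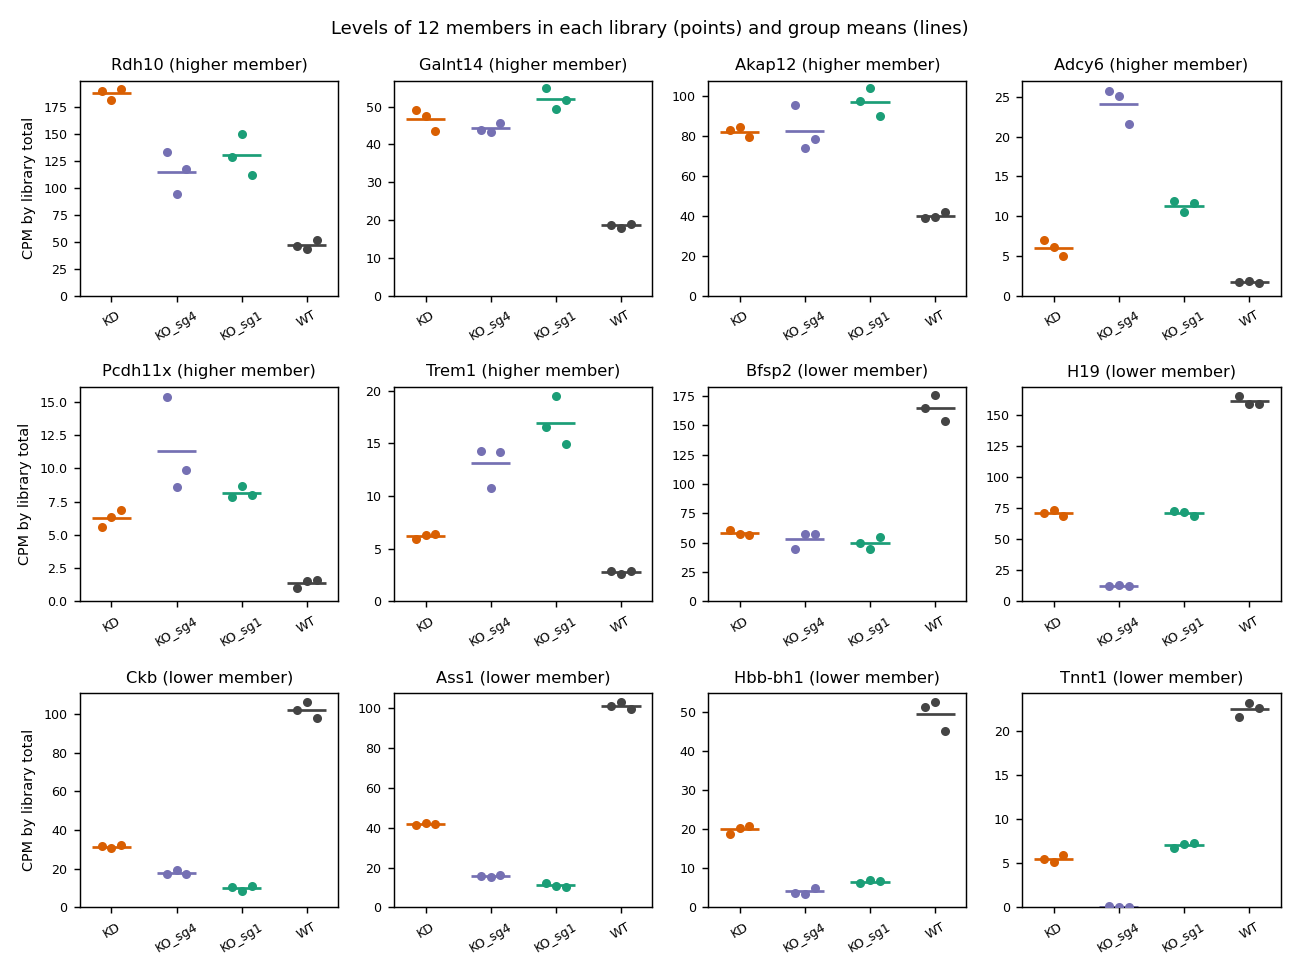
CPM by library total (vertical axis, linear, from 0) of 12 members in KD, KO_sg4, KO_sg1 and WT, with a point for each library and a line at each group mean. Adcy6 has 3 separate perturbed levels, Rdh10 is highest in KD, Bfsp2 lies between 44.3 and 60.5 CPM in all perturbed libraries, and H19 and Tnnt1 lie far lower in KO_sg4 than in KO_sg1.

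Enzymes were led by Rdh10, a retinol dehydrogenase at the first step of retinoic acid synthesis. It had 190, 182 and 192 CPM in KD, 133, 94.0 and 118 CPM in KO_sg4, 129, 150 and 112 CPM in KO_sg1, and 45.9, 43.6 and 51.5 CPM in WT. KD lay above all knockout libraries (KD against KO 0.38 ± 0.08, edgeR adjusted p = 0.000543), and the guides overlapped: their difference of -0.30 ± 0.09 passed the test, but not with library totals (-0.18), with only the groups compared (-0.30) or without KO_sg1 replicate 1 (-0.32) or 2 (-0.20) or KO_sg4 replicate 2 (-0.21) or 3 (-0.32). Galnt14, which starts O-glycan chains on proteins and whose promoter is printed above, had 49.0, 47.5 and 43.5 CPM in KD, 43.8, 43.3 and 45.7 CPM in KO_sg4, 54.9, 49.3 and 51.8 CPM in KO_sg1, and 18.7, 17.9 and 19 CPM in WT. KD and KO_sg4 overlapped, and no perturbed library came near WT; KD against KO was -0.29 ± 0.06 and was no longer called when libraries were scaled by their totals (-0.04). Mboat1, a lysophospholipid acyltransferase, averaged 11.2 ± 0.745 CPM in KD, 7.16 ± 1.22 CPM in KO_sg4, 9.86 ± 1.30 CPM in KO_sg1 and 2.52 ± 0.370 CPM in WT. KO_sg4 was lower than KO_sg1 (-0.58 ± 0.12, edgeR adjusted p = 0.00296), and KD did not pass the test against the knockouts (0.17 ± 0.10, edgeR adjusted p = 0.139).

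Regulators of the actin skeleton followed. Trio, an exchange factor for Rac GTPases with 3 GC boxes in the promoter printed above, had 13.1, 14.4 and 11 CPM in KD, 10.9, 8.43 and 7.01 CPM in KO_sg4, 11.4, 10.1 and 10.8 CPM in KO_sg1, and 3.08, 3.15 and 3.38 CPM in WT. KO_sg1 overlapped both KD and KO_sg4, and KD lay just above KO_sg4. KD did not pass the test against the knockouts (0.16 ± 0.11, edgeR adjusted p = 0.197). KO_sg4 was lower than KO_sg1 by -0.41 ± 0.13 (edgeR adjusted p = 0.0339), a call lost with library totals (-0.29), with only the groups compared (-0.42) and without KD replicate 1 (-0.41), KO_sg1 replicate 1 or 3 (-0.38 each) or KO_sg4 replicate 3 (-0.27). Ssh3, of the slingshot family of cofilin phosphatases, averaged 44.1 ± 0.967 CPM in KD, 51.7 ± 10.9 CPM in KO_sg4, 38.9 ± 7.30 CPM in KO_sg1 and 16.2 ± 0.697 CPM in WT, with neither contrast between perturbations past the test (edgeR adjusted p = 0.167 and 0.0878). Utrn, utrophin, which ties actin to the membrane, had 4.73, 4.79 and 4.60 CPM in KD, 17.0, 9.50 and 12.5 CPM in KO_sg4, 6.81, 7.83 and 5.54 CPM in KO_sg1, and 2.09, 1.80 and 2.21 CPM in WT. The groups did not overlap, although KO_sg4 spread widely; KO_sg4 was higher than KO_sg1 by 0.82 ± 0.15 (edgeR adjusted p = 0.000966) and KD lower than the knockouts by -1.24 ± 0.14 (edgeR adjusted p = 1.41e-06). Daam1, a formin at the edge of the selection, averaged 1.39 ± 0.0798 CPM in KD, 2.82 ± 0.734 CPM in KO_sg4, 1.66 ± 0.401 CPM in KO_sg1 and 0.441 ± 0.120 CPM in WT. Its difference between the guides, 0.64 ± 0.21 (edgeR adjusted p = 0.0360), was no longer called with DESeq2 (0.62), with only the groups compared or without any KD library (0.64 each), or without KO_sg1 replicate 1 (0.47) or 3 (0.64) or KO_sg4 replicate 1 (0.44). Mageh1, of the X-linked MAGE family, averaged 8.54 ± 0.340, 8.81 ± 0.551 and 7.82 ± 0.822 CPM in KD, KO_sg4 and KO_sg1, and 2.65 ± 0.212 CPM in WT. Its KD against KO difference of -0.21 ± 0.08 turned to 0.04 when libraries were scaled by their totals, and it was not called without KD replicate 1 (-0.16), 2 (-0.18) or 3 (-0.22) or KO_sg4 replicate 3 (-0.18).

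Among the members below WT, transcription factors and other regulators are given first. Ciita, the master activator of MHC class II genes, had 0.280, 0.431 and 0.468 CPM in KD, 0.230, 0.320 and 0.168 CPM in KO_sg4, 0.0377, 0.0833 and 0.0491 CPM in KO_sg1, and 1.92, 2.13 and 1.33 CPM in WT. It was lowest in KO_sg1 and scarce everywhere. KD was higher than the knockouts by 1.44 ± 0.39 (edgeR adjusted p = 0.00324); KO_sg4 was higher than KO_sg1 by 1.77 ± 0.58 (edgeR adjusted p = 0.0366), a call lost with DESeq2 (1.83) and without KO_sg1 replicate 1 (1.54) or 3 (1.71) or KO_sg4 replicate 1 (1.82) or 2 (1.52). Of the 10 other MHC class II genes tested, none a member, 5 passed the test above WT and 4 below it in KD, 1 and 7 in KO_sg4, and 2 and 6 in KO_sg1. The 4 below WT in KD were H2-Aa, H2-Ab1, H2-Eb1 and Cd74, which also passed the test below it in the knockouts. The 5 above it in KD were H2-DMa, H2-DMb1, H2-Eb2, H2-Oa and H2-Ob. H2-Aa, a class II chain, was below WT by -0.95 ± 0.12 in KD, -4.12 ± 0.17 in KO_sg4 and -4.70 ± 0.18 in KO_sg1 (edgeR adjusted p = 4.71e-06, 1.32e-10 and 1.15e-10). In the same order, H2-Ab1 was at -1.24 ± 0.18, -3.70 ± 0.25 and -4.50 ± 0.28. H2-Eb1 was at -1.14 ± 0.18, -3.96 ± 0.25 and -4.27 ± 0.26. These are values of the TMM-scaled fit, while the rule used library totals with 0.5 CPM added. H2-DMa, a chain of the peptide exchange factor, was above WT by 1.12 ± 0.09 in KD and below it by -2.53 ± 0.11 in KO_sg4 and -1.21 ± 0.10 in KO_sg1 (edgeR adjusted p = 2.48e-08, 2.4e-10 and 2.19e-07).

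Fos and Fosb encode partners of Jun in AP-1 and are induced within minutes of a stimulus. Fos had 0.456, 0.604 and 0.392 CPM in KD, 0.656, 0.320 and 0.637 CPM in KO_sg4, 1.05, 0.694 and 0.932 CPM in KO_sg1, and 3.14, 3.11 and 3.39 CPM in WT. The perturbed groups were close to each other and far from WT. KD was lower than the knockouts by -0.78 ± 0.25 (edgeR adjusted p = 0.00997), a call lost with library totals (-0.54) and without KD replicate 3 (-0.63); KO_sg4 against KO_sg1 was -0.78 ± 0.26 (edgeR adjusted p = 0.0428), a call lost with library totals (-0.66), DESeq2 (-0.81), limma-voom (-0.77), no filter (-0.77) or only the groups compared (-0.79), and without KO_sg1 replicate 1 or 3, KD replicate 1 or 3, any KO_sg4 library or any WT library (-0.59 to -0.90). Fosb had 0.768, 0.807 and 0.832 CPM in KD, 1.25, 1.23 and 0.670 CPM in KO_sg4, 3.20, 2.97 and 3.34 CPM in KO_sg1, and 5.66, 7.19 and 9.09 CPM in WT. It lay nearest to WT in KO_sg1 and was lower in KO_sg4 by -1.72 ± 0.23 (edgeR adjusted p = 8.03e-05) and lower in KD than in the knockouts by -1.41 ± 0.24 (edgeR adjusted p = 6.77e-05). These were among the few members below WT that KD took farther than the knockouts did. The other immediate early genes moved both ways: of 18 tested, 4 passed the test above WT and 6 below it in KD, 4 and 9 in KO_sg4, and 3 and 8 in KO_sg1. Egr1, a zinc finger factor of the same class, was at 0.00 ± 0.12 in KD and above WT by 1.72 ± 0.12 in KO_sg4 and 0.95 ± 0.12 in KO_sg1 (edgeR adjusted p = 0.973, 3.83e-08 and 2.6e-05). Others passed the test below WT in every perturbation, Jund and Klf2 among them. In the same order, Jund was at -0.84 ± 0.07, -0.82 ± 0.07 and -0.31 ± 0.07, and Klf2 at -0.45 ± 0.07, -3.28 ± 0.09 and -1.94 ± 0.08.

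H19, an imprinted long non-coding RNA that also hosts a microRNA, had 71.5, 73.3 and 68.5 CPM in KD, 12.3, 12.9 and 12.1 CPM in KO_sg4, 72.7, 71.8 and 69.2 CPM in KO_sg1, and 165, 159 and 159 CPM in WT. KD and KO_sg1 overlapped at the same intermediate level, and KO_sg4 lay far below them (KO_sg4 against KO_sg1 -2.64 ± 0.06, edgeR adjusted p = 3.18e-12). Gcm2, the transcription factor of parathyroid development, had 7.71, 6.77 and 7.18 CPM in KD, 0.0656, 0.0914 and 0.0670 CPM in KO_sg4, 4.22, 4.13 and 4.62 CPM in KO_sg1, and 16, 16.1 and 16.7 CPM in WT. It stepped down without overlap from KD to KO_sg1 and KO_sg4, and was near the floor in KO_sg4 (-5.92 ± 0.21 against KO_sg1, edgeR adjusted p = 1.04e-10). Stox2, a winged-helix protein, had 1.02, 1.47 and 0.857 CPM in KD, 0, 0 and 0.0335 CPM in KO_sg4, 0.788, 0.739 and 0.343 CPM in KO_sg1, and 7.12, 5.33 and 5.95 CPM in WT. With 1 count over KO_sg4 and 55 over KO_sg1, it was lower in KO_sg4 by a ratio of 54.5 (95% exact binomial counting interval 9.38 to 2190). Crxos1, a homeobox gene named Crxos in RefSeq, averaged 5.24 ± 0.168 CPM in KD, 1.82 ± 0.0565 CPM in KO_sg4, 0.742 ± 0.158 CPM in KO_sg1 and 11.5 ± 0.653 CPM in WT, and was higher in KD than in the knockouts by 1.94 ± 0.12 (edgeR adjusted p = 1.19e-09). Lin28b, an RNA-binding protein that blocks let-7 maturation in fetal lymphoid progenitors, falls outside the rule for named genes. It had 1.02, 0.840 and 1.36 CPM in KD, 0, 0.0443 and 0.0335 CPM in KO_sg4, 0.0380, 0 and 0 CPM in KO_sg1, and 4.23, 4.10 and 3.82 CPM in WT, so that KD kept a level between WT and nearly silent knockouts.

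Metabolic enzymes were also among the members below WT. Ckb, the brain-type creatine kinase whose TATA promoter is printed above, had 31.5, 30.6 and 32.1 CPM in KD, 17.1, 19.6 and 17.4 CPM in KO_sg4, 10.4, 8.41 and 10.9 CPM in KO_sg1, and 102, 106 and 97.8 CPM in WT. No groups overlapped. KD was higher than the knockouts by 1.0 ± 0.09 (edgeR adjusted p = 8.67e-08), and KO_sg4 higher than KO_sg1 by 0.77 ± 0.11 (edgeR adjusted p = 0.000166). Ass1, argininosuccinate synthase of arginine synthesis, had 41.4, 42.3 and 42.1 CPM in KD, 15.8, 15.4 and 16.1 CPM in KO_sg4, 12.3, 10.9 and 10.1 CPM in KO_sg1, and 101, 103 and 99.8 CPM in WT. The replicates were tight, and the order of the groups was that of Ckb (KD against KO 1.42 ± 0.05, edgeR adjusted p = 6.24e-12; KO_sg4 against KO_sg1 0.39 ± 0.07, edgeR adjusted p = 0.000661). Gmpr, a reductase that turns GMP into IMP, had 5.89, 4.70 and 5.46 CPM in KD, 0.0328, 0 and 0.0670 CPM in KO_sg4, 0.0753, 0.0278 and 0.0981 CPM in KO_sg1, and 15.2, 14.4 and 13.5 CPM in WT. KD was higher than the knockouts, which held 3 counts over KO_sg4 and 5 over KO_sg1, by 6.47 ± 0.23 (edgeR adjusted p = 5.02e-12). Gcnt2, which branches the I blood group glycan, averaged 5.94 ± 0.276 CPM in KD, 0.149 ± 0.0936 CPM in KO_sg4, 1.09 ± 0.211 CPM in KO_sg1 and 12.9 ± 1.28 CPM in WT (KD against KO 3.57 ± 0.17, edgeR adjusted p = 8.75e-11). Akr1c12, an aldo-keto reductase with close paralogs and therefore uncertain counts, averaged 11.8 ± 1.47, 6.68 ± 0.662 and 3.51 ± 0.27 CPM in KD, KO_sg4 and KO_sg1, and 28.8 ± 1.46 CPM in WT.

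Of the enzymes and adaptors that regulate other proteins, Asb2, a substrate receptor of a ubiquitin ligase, had 18, 18.5 and 17.7 CPM in KD, 9.87, 9.55 and 10.3 CPM in KO_sg4, 4.03, 3.94 and 4.61 CPM in KO_sg1, and 42.4, 42.9 and 40.4 CPM in WT. Again the groups were separate, with KO_sg4 higher than KO_sg1 by 1.14 ± 0.09 (edgeR adjusted p = 4.13e-07) and KD higher than the knockouts by 1.25 ± 0.07 (edgeR adjusted p = 4.77e-10). Usp43, a ubiquitin protease, had 2.49, 2.76 and 2.35 CPM in KD, 0 CPM in all KO_sg4 libraries, 0.339, 0.111 and 0.0981 CPM in KO_sg1, and 6.59, 6.51 and 6.09 CPM in WT. Taking 3 counts over the 3 libraries as the floor, it was at least 175-fold lower in KO_sg4 than in WT and at least 4.95-fold lower than in KO_sg1. Map2k6, a kinase that activates p38 and lies outside the rule for named genes, had 1.16, 0.777 and 1.11 CPM in KD, 0 CPM in all KO_sg4 libraries, 0.941, 0.944 and 0.687 CPM in KO_sg1, and 2.78, 3.37 and 3.08 CPM in WT. KD and KO_sg1 overlapped, and KO_sg4 was at least 24.1-fold lower than KO_sg1. Tmprss3, a membrane serine protease also outside the rule, showed the opposite order of the guides: it had 0.262, 0.274 and 0.441 CPM in KO_sg4 and was at 0 in all KO_sg1 libraries, at least 9.14-fold lower in KO_sg1.

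Cytoskeletal and contractile genes known from other tissues were below WT too. Bfsp2, a filament protein of the eye lens that is also transcribed in B-cell precursors, had 60.5, 57.4 and 56.4 CPM in KD, 44.3, 57.7 and 57.5 CPM in KO_sg4, 49.7, 45.1 and 55.3 CPM in KO_sg1, and 165, 176 and 154 CPM in WT. All perturbed libraries lay between 44.3 and 60.5 CPM; KO_sg4 overlapped both other groups, while KD lay above KO_sg1. Neither contrast between them passed the test (KO_sg4 against KO_sg1 -0.02 ± 0.13, edgeR adjusted p = 0.930; KD against KO -0.08 ± 0.11, edgeR adjusted p = 0.523). Tnnt1, troponin T of slow muscle, had 5.50, 5.18 and 5.89 CPM in KD, 0.131, 0 and 0 CPM in KO_sg4, 6.74, 7.16 and 7.30 CPM in KO_sg1, and 21.5, 23.1 and 22.6 CPM in WT. KD and KO_sg1 were near each other and KO_sg4 near the floor, lower than KO_sg1 by -7.18 ± 0.31 (edgeR adjusted p = 7.39e-10). Myl4, a myosin light chain of embryonic muscle and atrium, had 8.53, 7.92 and 8.56 CPM in KD, 5.90, 7.81 and 8.48 CPM in KO_sg4, 12.2, 10.0 and 11.4 CPM in KO_sg1, and 35.5, 38.3 and 34.5 CPM in WT. Here KO_sg1 was nearest to WT (KO_sg4 against KO_sg1 -0.71 ± 0.14, edgeR adjusted p = 0.00185). Shroom3, which draws actin to the apical side of epithelia, averaged 2.80 ± 0.632 CPM in KD, 2.24 ± 0.436 CPM in KO_sg4, 3.58 ± 0.328 CPM in KO_sg1 and 15.3 ± 1.06 CPM in WT, and KD did not pass the test against the knockouts (-0.26 ± 0.16, edgeR adjusted p = 0.130).

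Ppl, a plakin of desmosomes, averaged 3.08 ± 0.469 CPM in KD, 1.47 ± 0.317 CPM in KO_sg4, 1.45 ± 0.106 CPM in KO_sg1 and 8 ± 0.39 CPM in WT; the guides did not pass the test against each other (edgeR adjusted p = 0.783), and KD was higher than both together by 0.85 ± 0.14 (edgeR adjusted p = 6.33e-05). Cdsn, corneodesmosin of the outer skin, averaged 2.49 ± 0.625 CPM in KD, 0.0152 ± 0.0264 CPM in KO_sg4, 0.0943 ± 0.0517 CPM in KO_sg1 and 5.70 ± 0.613 CPM in WT. Krt18, a keratin of simple epithelia, had 0, 0.129 and 0.107 CPM in KD, 0.0328, 0 and 0 CPM in KO_sg4, 0 CPM in all KO_sg1 libraries, and 1.95, 1.90 and 1.64 CPM in WT. It was at least 50.6-fold lower in KO_sg1 than in WT. The 12 stromal and epithelial markers that include it summed to 519 to 550 CPM in KD, 350 to 381 CPM in KO_sg4, 287 to 299 CPM in KO_sg1 and 730 to 770 CPM in WT, with Epcam at 0 in all groups. Of the 4 others tested, 3 passed the test above WT and 1 below it in KD, against 0 and 3 in KO_sg4 and 0 and 3 in KO_sg1, and their part in the level of Krt18 was not tested.

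Hbb-bh1, a beta-like globin of the embryo whose counts can be shared with other globins, had 18.8, 20.3 and 20.7 CPM in KD, 3.67, 3.52 and 5.06 CPM in KO_sg4, 6.17, 6.94 and 6.77 CPM in KO_sg1, and 51.3, 52.4 and 45.0 CPM in WT. All groups were separate, with KD higher than the knockouts by 1.69 ± 0.10 (edgeR adjusted p = 7.29e-10) and KO_sg4 lower than KO_sg1 by -0.80 ± 0.13 (edgeR adjusted p = 0.000482). The 14 erythroid and megakaryocyte markers did not follow it: they summed to 919 to 996 CPM in KD, 302 to 485 CPM in KO_sg4, 402 to 469 CPM in KO_sg1 and 302 to 335 CPM in WT, with Gata2 among those at 0 in all groups. Of the 6 tested, 2 passed the test above WT and 0 below it in KD, 0 and 1 in KO_sg4, and 1 and 1 in KO_sg1.

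The selection used the levels in KD, KO_sg4 and KO_sg1, so it also shapes how the members differ between them. Below WT, KD was the step that fewest genes passed. A member there had to clear the threshold in every group, and KD set the smallest difference in 31 of the 41. The counts that follow are therefore descriptions. Between the guides, edgeR called 13.8% of the 12335 genes higher in KO_sg4 and 13.4% lower. Of the 25 members above WT, 5 were called higher and 7 lower in KO_sg4, and 13 were not called, with a median difference of 0.05 on the log2 scale. Of the 41 below WT, 10 were called higher and 14 lower, and 17 were not, with a median of -0.71; the median of all genes tested was 0.01. Between KD and the mean of both knockouts, 42.9% of all genes were called higher in KD and 40.4% lower, with a median of 0.05. Of the 25 members above WT, 3 were called higher in KD, 15 lower and 7 neither, with a median of -0.37. Of the 41 below WT, 31 (75.6%) were called higher in KD, 4 lower and 6 neither, with a median of 1.84. These calls are against the mean of both knockouts and do not say which group lay nearest to WT. The 4 members below WT called lower in KD were Fos, Fosb, Myl4 and Serpinb6b, of which Myl4 lost its call with library totals (-0.12) and without KD replicate 2 (-0.31), and Serpinb6b lies outside the rule for named genes. In all, 5 members above WT and 3 below it were called in neither contrast; Ssh3, H2-Q9 and Bfsp2, described above, are among them.

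**Figure D4:**
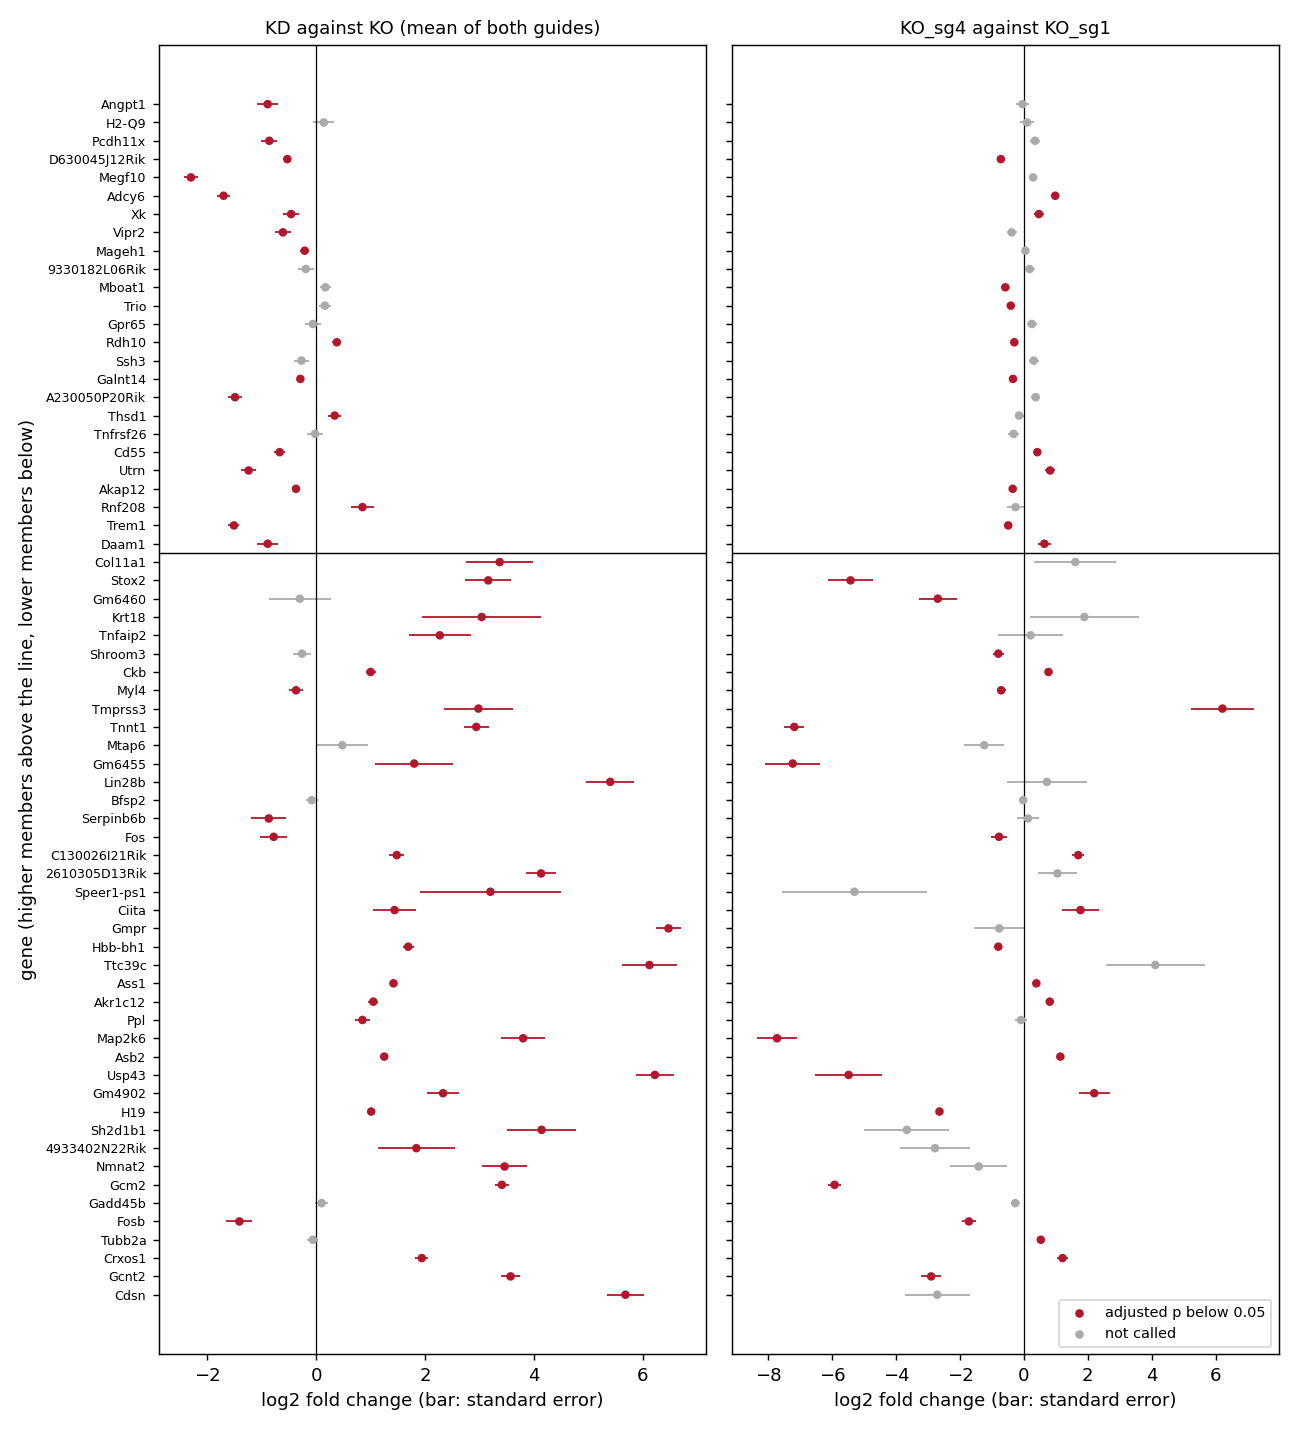
Log2 fold change with its standard error for each of the 66 members in KD against KO (left) and KO_sg4 against KO_sg1 (right), from edgeR over all 12 libraries, in red where the adjusted p is below 0.05. Most members below WT lie right of 0 in the left panel; estimates for genes near 0 counts in a group depend on the prior count of the fit.

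Of 24 gene lists, 3 held members: MHC class II (Ciita), immediate early genes (Fos and Fosb), and stromal and epithelial genes (Krt18). None of the 24 B-cell transcription factors, 27 B-cell surface genes, 12 V(D)J recombination genes, 13 NuRD subunits or 25 cell cycle genes in the table was a member. Members were 0.578% of genes at 1 CPM or more, and at that share lists of this size would hold few or none. In the B-cell transcription factor list, 1 of 23 genes tested passed the test above WT and 16 below it in KD. The counts were 9 and 7 in KO_sg4 and 5 and 9 in KO_sg1. The B-cell surface and receptor signalling list went the other way in KD, with 17 of 26 above WT and 7 below it. Its counts were 5 and 13 in KO_sg4 and 8 and 9 in KO_sg1. Over all genes tested the shares were 37.2% and 40.4% in KD, 18% and 22% in KO_sg4, and 16.9% and 21.9% in KO_sg1.

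The members were spread over the genome, with exceptions. All 66 matched a RefSeq gene, 7 of them by an older symbol, and 64 were annotated as protein coding. Chromosomes 7, 12 and 13 held 7 members each (10.6% each), where 7.82%, 3.46% and 4.05% of the matched genes at 1 CPM or more lie. The X chromosome held 3 (4.55%), Pcdh11x, Xk and Mageh1, all above WT, where 3.08% of the matched genes at 1 CPM or more lie. On chromosome 5, 5 members were direct neighbours in the order of genes at 1 CPM or more: 9330182L06Rik (Elapor2 in RefSeq) stood above WT, and Gm6455, Speer1-ps1, Gm6460 and 4933402N22Rik after it all stood below. Gm6455 had 0.263, 0.0720 and 0.249 CPM in KD, 0 CPM in all KO_sg4 libraries, 0.671, 0.518 and 0.698 CPM in KO_sg1, and 2.53, 2.40 and 3.52 CPM in WT. Speer1-ps1 belongs to a family of near-identical genes among which reads can be shared, so counts in this stretch are uncertain. Gcnt2 and Gcm2 lay near each other on chromosome 13, with 2 genes at 1 CPM or more between them, and both were lower in KO_sg4 than in KO_sg1.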

How the data were processed

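RNA-seq estimated counts of 23224 genes in 12 libraries were deposited by the authors in 1 table. Per the submitters' processing notes, Bowtie 1.0.1 and RSEM 1.2.12 were used with the mm9 genome; the sources used here name no annotation or strand setting. RSEM divides reads that match several genes, so near-identical, overlapping and antisense genes are uncertain. Groups and replicate numbers come from the sample titles.

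The members and gene lists were chosen with earlier results of these data known. Levels are CPM by library total. For tests, counts were rounded and filtered with filterByExpr (minimum count 10), leaving 12335 genes. They were scaled by TMM (0.88 to 1.14) and fitted in 1 edgeR 4.0.16 quasi-likelihood model of 4 group means (R 4.3.3). KD against KO weights the guides equally. Two-sided tests were used, and p-values were adjusted over all genes tested (threshold 0.05). The fit was tested on simulated data. Same-numbered libraries did not deviate together (18 correlations, -0.238 to 0.101), so numbers were not used as pairs. Within a group, libraries differed beyond sampling noise (chi-square per degree of freedom 3.24 to 60.8 over 12 pairs).

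Named were the 14 members above and the 14 below WT with the largest smallest difference and at least 5 CPM in a group, the 5 highest and 5 lowest called members of each contrast between perturbations, list members, genes at the threshold and Phf6, leaving out gene models without a standard symbol: 39 members. Alternatives were other scalings and filters, DESeq2 1.42.0, limma-voom 3.58.1, a replicate block, only the groups compared and leaving out each library. RefSeq tables (GRCm38.p6) gave promoters, names and gene order.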

Additional observations from a re-analysis of the deposited data

Results flagged for a closer look

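These 27 members, all kept by the rule for named genes, differed between the knockout guides in the test of that difference (edgeR, adjusted p below 0.05). Members outside that rule were called too. In all, 5 of the 25 members above WT were called higher in KO_sg4 and 7 lower. Of the 41 below WT, 10 were called higher and 14 lower. Over all 12335 genes tested, 13.8% were called higher and 13.4% lower. Values are KO_sg4 minus KO_sg1 on the log2 scale. Among the members above WT, Adcy6 (0.98), Utrn (0.82), Daam1 (0.64) and Cd55 (0.42) were higher in KO_sg4, and Mboat1 (-0.58), Trem1 (-0.49), Trio (-0.41), Akap12 (-0.35), Galnt14 (-0.34) and Rdh10 (-0.30) were lower. Among the members below WT, Ciita (1.77), Crxos1 (1.21), Asb2 (1.14), Akr1c12 (0.81), Ckb (0.77) and Ass1 (0.39) were higher in KO_sg4. Lower there were Tnnt1 (-7.18), Gcm2 (-5.92), Usp43 (-5.48), Stox2 (-5.42), Gcnt2 (-2.90), H19 (-2.64), Fosb (-1.72), Hbb-bh1 (-0.80), Shroom3 (-0.80), Fos (-0.78) and Myl4 (-0.71). The calls of Daam1, Trio, Rdh10, Cd55, Ciita and Fos were lost without 1 library in more than 1 case, as given with each gene, and that of Akap12 with library totals. The fitted values of Usp43 and Stox2, which have 0 and 1 counts in KO_sg4, depend on the prior count of the fit and are no bounds.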

How the results depend on the processing

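The number of members above WT was 25, and 45 with a pseudocount of 0.1 CPM; the number below was 41, and 24 with a minimum of 5 CPM. Of the members above WT, 5 were called higher in KO_sg4 than in KO_sg1, against 3 with the DESeq2 Wald test, 2 with only the groups compared, and 2 to 7 without a library. With the replicate block, which the correlations do not back, 3 were called. Scaled by library totals, 4 in place of 7 of them were called lower in KO_sg4, 5 in place of 3 higher in KD than in the knockouts, and 1 in place of 4 members below WT was called lower in KD. Without a library the last 2 counts ran from 2 to 5 (5 without KO_sg4 replicate 1) and from 2 to 4 (2 without KD replicate 3). Of 1135 alternative values of the 60 called differences of named members, 1072 kept direction and call, 62 in 14 differences lost the call, and Mageh1 in KD against KO reversed, from -0.21 to 0.04, with library totals. The cause was not tested. TATA letters on the gene's strand alone were an alternative added after the data were seen. They were found for 0 of 16 members above WT and 15.2% of members below it, against 6.25% and 27.3% on either strand. Depth limits the members near 0 counts, most of them below WT.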
